A study of Arabidopsis thaliana with 10 samples.

Results

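In endosperm with the normal balance of parental genomes 2 of 3 genome copies are maternal, and most Arabidopsis genes give mainly maternal reads. The 244 genes described here gave mainly paternal reads in the balanced endosperm of this study. They were chosen from the authors' pooled balanced allele counts, as genes with 50 or more allele reads of which 70% or more came from the father. The table held 37336 genes, of which 10388 had 50 or more balanced reads, so the 244 made up 2.35% of the genes that could qualify. In all 247 genes met both thresholds, and 3 of them were left out by the choice of genes. The balanced share is therefore what chose these genes, and it is given as a description and without a test.

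Endosperm is the nutritive tissue of the seed and arises when the 2-copy central cell is fertilised by a sperm cell. In Arabidopsis a set of endosperm genes is imprinted, meaning that the copy from one parent is silent because of its history in that parent. Paternally expressed imprinted genes are read from the sperm-derived copy, and in Arabidopsis the maternal copy is often held silent by Polycomb proteins. Such genes have long been studied in crosses with tetraploid fathers, in which extra paternal genomes disturb endosperm development and often kill the seed.

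Hand-dissected endosperm of the following kinds was compared. Viable paternal excess came from a Ler mother and a tetraploid (4N) Col father mutant for nrpd1, the gene for the catalytic subunit that defines RNA polymerase IV. Lethal paternal excess came from a Ler mother and a wild-type 4N Col father. Balanced endosperm came from 5 replicates of other series that the authors pooled, and its values were used as that pool alone. The labels of the samples analysed here do not give the strains or ploidy of its parents. Both paternal-excess groups had 3 replicates of untreated plants. Labels date collection to 7 days after pollination (8 days for 1 of the parts of lethal replicate 1), whereas the series text says 6 days. In balanced endosperm 2 genome copies are maternal and 1 is paternal, so equal output per copy gives 33.3% paternal reads. Paternal-excess endosperm carries 2 copies from each parent, so equal output gives 50%.

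The father was Col and the mother Ler in both paternal-excess crosses, and no reciprocal cross was analysed here. A gene more active from the Col sequence and a gene more active from the paternal copy therefore cannot be told apart. "Paternal share" below means the percentage of Ler plus Col reads that were Col, and for the balanced pool the percent paternal that the authors gave. The rule that assigned reads to alleles was not stated, and the part of read assignment in a share was not tested. Ploidy, series and library batch all separate the balanced pool from paternal excess, and their parts in a difference cannot be told apart either. In whole tissue, fewer cells of a type and less RNA per cell cannot be told apart.

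Allele reads in genes numbered 5692640 to 6683136 in the viable libraries, 7356862 to 7983669 in the lethal libraries and 11895484 in the balanced pool. Viable replicate 3 and lethal replicate 3 had reads in 13465 and 15829 genes, against 16560 to 17246 genes in the other 4 libraries. The 14 seed coat markers summed to 621 to 781 CPM (counts scaled to the library's total of gene allele reads) in viable, 811 to 1183 CPM in lethal and 1107 CPM in balanced endosperm, at 0.289% to 1.41% paternal reads. The 14 embryo markers summed to 57.9 to 100.3, 42.1 to 176 and 111 CPM in viable, lethal and balanced endosperm, and the 10 endosperm markers to 512 to 972, 312 to 647 and 1454 CPM. Among the embryo markers 4 to 11 of 14 were at 0 in a given library, and among the endosperm markers 1 to 4 of 10. Of the endosperm markers MEA had no read in any library or in the balanced pool, IKU2 had none in viable replicate 3 and in the pool, and PHE1 and MINI3 had none in the pool, while ALE1, ZOU and EDE1 had reads in all. The 14 pollen markers summed to 136 CPM in viable replicate 1, 2.04 to 6.82 CPM in the other 5 libraries and 14.8 CPM in balanced endosperm. None of the 244 genes is on these 4 marker lists, and the part that other tissues play in their levels was not tested.

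In the balanced pool the 244 genes ranged from 70% to 100% paternal, with a median of 82.0%. In all, 107 genes lay between 70% and 80%, 53 between 80% and 90%, and 84 at 90% or more, and 31 had paternal reads alone. Their depth was modest, with a median of 148 reads and 146 genes under 200 reads. The lower bound of the exact 95% interval of the share fell under 70% for 94 genes, and such intervals cover counting error only. At the boundary stood AT3G51171 with 70% of 50 reads (interval 55.4% to 82.1%), JAX1 with 70% of 257 reads (64.0% to 75.6%) and AT2G06025 with 70.1% of 331 reads (64.8% to 75%). Just below it stood AT5G10770 with 69.9% of 103 reads, AT5G66310 with 69.8% of 126 reads and AT5G46115 with 69.8% of 63 reads, which are not among the 244.

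Of the 244 genes 210 are protein coding, 19 are pseudogenes (5 of them transcribed) and 15 are noncoding RNAs, in the reference annotation. Genes that are not protein coding made up 34 of 244 (13.9%), against 192 of the 10388 genes with 50 or more balanced reads (1.85%). Chromosome 5 held 82 of them, which is 3.22% of its genes with enough balanced reads, against 1.88% to 2.19% on the other 4 chromosomes. In all, 56 of the 244 overlap another locus, and since strand use in the counting is not given, reads of overlapping and antisense genes there cannot be told apart.

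Most of these genes also gave mainly paternal reads in both paternal-excess groups, in libraries that played no part in choosing them. Among members with 20 or more reads in a library, the median paternal share was 89.5%, 90.3% and 91.9% in viable replicates 1 to 3 and 86.8%, 88.5% and 86.5% in lethal replicates 1 to 3. Over all genes with 20 or more reads in the library and 50 or more balanced reads, the median was 49.8% to 51.5% in viable and 49.8% to 50.9% in lethal libraries. The medians of the 244 genes thus stood well above those of all genes so covered in every one of the 6 libraries, as the plot of shares by library shows.

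**Figure D1:**
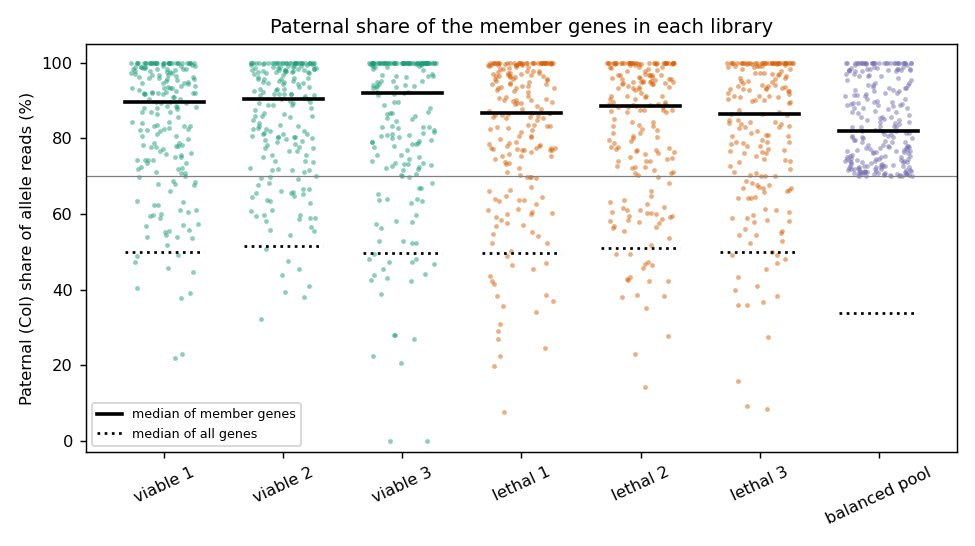
Paternal (Col) share of allele reads in percent for each of the 244 genes with 20 or more reads, 1 column of points per library. Solid bars mark the median of these genes. Dotted bars mark the median of all genes with 20 or more reads in the library and 50 or more balanced reads. The medians of the 244 genes lie between 86.5% and 91.9% in the 6 paternal-excess libraries, while those of all genes so covered lie near 50%. The balanced column is cut at the 70% threshold that chose the genes (thin line).

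Paternal share was tested against equal maternal and paternal reads by edgeR's quasi-likelihood F test, fitted to the Ler and Col counts of all genes, two-sided, with Benjamini-Hochberg adjustment over 12734 genes and adjusted p under 0.05 as the call. Of the 244 genes 213 had enough reads (a mean of 10 per library). In viable endosperm 153 of these 213 were called higher than 50% paternal and 1 lower, against a background of 10.6% higher and 7.66% lower over all genes tested. In lethal endosperm 155 were called higher and 3 lower, against 11.2% and 8.94% over all genes. Among tested genes with 50 or more balanced reads, 10.2% in viable and 10.8% in lethal endosperm were called higher. The median log2 ratio of Col to Ler reads of the 213 tested members was 3.15 in viable and 2.73 in lethal endosperm, against 0.04 and 0.03 over all genes tested. The calls largely fell on the same genes, since 143 were called higher in both groups, 10 in viable alone, 12 in lethal alone and 48 in neither.

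A stricter description gave a like picture. With 20 or more reads in each of the 3 libraries, 120 of 172 genes were at 70% or more in every viable library and 122 of 177 in every lethal library. The background was 5.06% of all genes in viable and 5.71% in lethal endosperm. The standard deviation of a gene's share over the 3 replicates had a median of 3.16 percentage points in viable and 2.78 in lethal endosperm, and a 90th percentile of 13.4 and 12.3. The mean share was 90% or more for 82 of the 172 genes in viable and 75 of the 177 in lethal endosperm, where it has little room to vary.

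The share in paternal excess went with the balanced share. Genes at 95% or more in the balanced pool had a median of 99.9% in viable and 99.9% in lethal endosperm, and 53 of 54 tested were called higher than 50% in each group. Genes between 70% and 80% in the balanced pool had medians of 73.7% and 73.9%, and 54 and 56 of 97 tested were called higher in viable and lethal endosperm. Equal output per copy gives 33.3% in the pool and 50% in paternal excess, so a like raw share does not mean a like bias per copy. Group means under 50% paternal were found for 6 of 172 genes in viable and 15 of 177 in lethal endosperm.

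**Figure D2:**
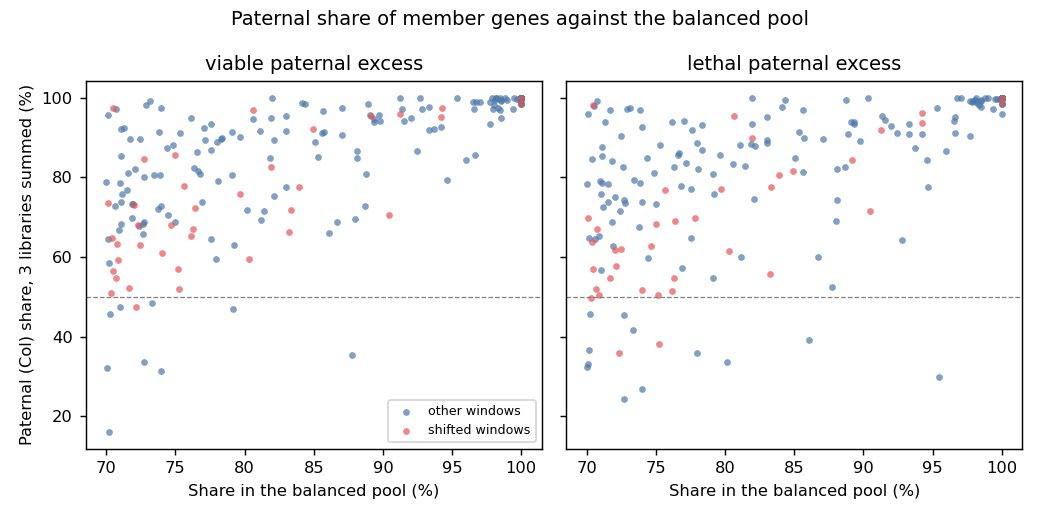
Paternal share of each gene over the 3 libraries summed (vertical axis, percent) against its share in the balanced pool (horizontal axis, percent), for viable (left) and lethal (right) paternal excess, with genes of 50 or more summed reads; red points lie in chromosome windows whose other genes were also shifted in the balanced pool. The dashed line marks 50%, and most points lie above it, while the red points reach lower shares, with medians of 71.2% in viable and 67.7% in lethal endosperm.

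A list of 23 Arabidopsis genes known as paternally expressed imprinted genes held 4 of the 244 genes, and all 4 were nearly fully paternal in both paternal-excess groups. AT1G60410 (chromosome 1, 22258939 to 22260787 in TAIR10) gave 98.1%, 98.0% and 99.0% paternal reads in viable replicates, 99.6%, 99.0% and 99.4% in lethal replicates and 84.3% in the balanced pool. AT2G36560 (chromosome 2, 15329138 to 15332447) gave 98.9%, 98.6% and 96.8% in viable, 99.6%, 98.0% and 99.6% in lethal and 100% in balanced endosperm. AT5G10950 (chromosome 5, 3459217 to 3461824) gave 99.0%, 98.6% and 94.1% in viable, 97.9%, 98.4% and 98.3% in lethal and 70.5% in balanced endosperm. AT2G21930 (chromosome 2, 9347641 to 9349178) gave 100% in each viable replicate, 98.0%, 96.3% and 98.9% in lethal replicates and 95.3% in the balanced pool. All 4 were called higher than 50% in both groups, with log2 Col to Ler ratios of 5.21 to 9.22 in viable and 5.28 to 7.22 in lethal endosperm.

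The level of these 4 genes was also higher in paternal excess. AT1G60410 had 536, 364 and 298 CPM in viable, 458, 496 and 310 CPM in lethal and 9.67 CPM in balanced endosperm. In the authors' deposited table AT1G60410 had 50.8 FPKM in viable against 2.33 FPKM in balanced endosperm and 52.5 FPKM in lethal against 2.33 FPKM in balanced endosperm, which is 21.8-fold and 22.6-fold higher. The authors' deposited table called 3 of the 4 higher in viable than in balanced endosperm (q under 0.05), AT2G21930 being the exception at 6.16 against 4.65 FPKM (q = 0.528), and all 4 higher in lethal endosperm. Over all genes tested, 14.2% in viable and 17.5% in lethal endosperm were called higher.

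Over the whole list of 23 imprinted genes, 8 had 50 or more balanced reads, and the 4 above are the ones among the 244. Of 19 list genes tested for share by edgeR, 11 were called higher than 50% paternal and 4 lower in viable endosperm, and 13 higher and 3 lower in lethal endosperm. Over all genes tested for share, 10.6% were called higher and 7.66% lower in viable endosperm, and 11.2% and 8.94% in lethal endosperm. NRPD1, the gene that is mutant in the viable father, was 1 of the 4 called lower in viable endosperm. It is not among the 244, and was 33.5%, 30.3% and 46.2% paternal in viable and 57.7%, 58.2% and 49.6% in lethal endosperm (log2 Col to Ler ratios -0.85 and 0.31, edgeR adjusted p = 0.0217 and 0.403, and 0.561 for their difference). The 3 genes called lower in both groups were AT1G55650, SUVH8 and JMJ15. SUVH8, a histone methyltransferase relative, had a log2 Col to Ler ratio of -5.45 in viable and -4.96 in lethal endosperm, and the histone demethylase gene JMJ15 had -6.80 and -6.05. By the authors' deposited table, 16 of 22 list genes were higher and 1 lower in viable than in balanced endosperm, and 17 of 23 were higher and 1 lower in lethal endosperm. The background over all genes tested was 14.2% higher and 12.9% lower in viable endosperm, and 17.5% and 16.6% in lethal endosperm.

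**Figure D3:**
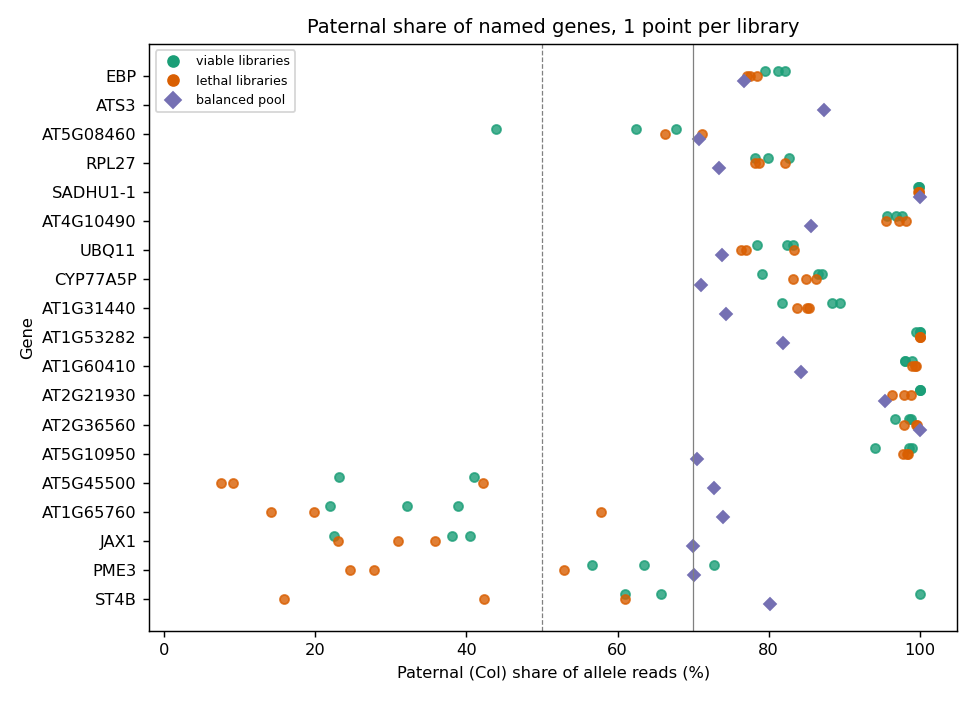
Paternal share in percent (horizontal axis) of named genes (rows), with 1 circle per viable or lethal library with 20 or more reads and a diamond for the balanced pool; the dashed line marks 50% and the solid line the 70% threshold. EBP lies between 77.1% and 82.2% in all 6 paternal-excess libraries, the 4 listed imprinted genes between 94.1% and 100%, and JAX1, AT1G65760 and AT5G45500 mostly below 50%.

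The 10 genes with most balanced reads show what the group holds in bulk. EBP (AT3G16770, chromosome 3, 5705541 to 5707084), an ethylene response transcription factor also called ERF72, supplied 79495 balanced reads at 76.8% paternal. Its share was 82.2%, 81.3% and 79.5% in viable replicates and 77.1%, 77.5% and 78.5% in lethal replicates, so the groups did not overlap, and both were called higher than 50% by edgeR (log2 ratio 2.09 ± 0.08 and 1.80 ± 0.08, SE). The viable minus lethal difference in log2 ratio, 0.29 ± 0.11, was not called (edgeR adjusted p = 0.972). EBP had 1083, 789 and 1350 CPM in viable, 499, 225 and 522 CPM in lethal and 6683 CPM in balanced endosperm. All viable libraries stood above all lethal ones, and every paternal-excess library stood below the balanced pool. The authors' deposited table gave EBP 124 FPKM in viable against 790 FPKM in balanced endosperm and 47.1 FPKM in lethal against 789 FPKM in balanced endosperm, which is 6.40-fold and 16.7-fold lower.

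Several others of these 10 are housekeeping or repeat-derived loci. RPL27 (AT5G40950), a ribosomal protein gene, was 78.1%, 79.9% and 82.7% paternal in viable, 78.2%, 82.2% and 78.7% in lethal and 73.5% in balanced endosperm. UBQ11 (AT4G05050), a polyubiquitin gene whose near-identical relatives make read assignment uncertain, was 83.2%, 82.4% and 78.5% in viable, 77%, 76.3% and 83.3% in lethal and 73.9% in balanced endosperm. SADHU1-1 (AT2G10410), a Sadhu retroposon that overlaps another locus, was 99.8% to 99.9% in all 6 libraries and 100% in the balanced pool. The ranges of viable and lethal libraries overlapped for RPL27, UBQ11 and SADHU1-1, and all 3 genes were called higher than 50% in both groups by edgeR.

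A related copy, SADHU1-2 (AT1G30835, named after its values were seen), was 97.8%, 97.3% and 96.6% in viable, 99.0%, 99.5% and 99.3% in lethal and 70.7% in balanced endosperm. AT4G10490, annotated as the oxygenase gene DLO2, was 95.6%, 97.6% and 96.9% in viable, 95.5%, 98.1% and 97.2% in lethal and 85.7% in balanced endosperm. AT1G53282 was 99.5% to 100% in viable, 100% in lethal and 82.0% in balanced endosperm. AT1G31440 was 81.8% to 89.5%, 83.8% to 85.4% and 74.4%, and CYP77A5P (AT3G18270), a cytochrome P450 locus, was 79.1% to 87.1%, 83.3% to 86.3% and 71.1%, in viable, lethal and balanced endosperm. All of these had higher raw shares in each paternal-excess library than in the balanced pool, and all were called higher than 50% in both groups. Equal output per copy gives 33.3% in the pool and 50% in paternal excess. A higher raw share therefore does not show a stronger bias per copy.

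The remaining pair of the 10 behaved differently. ATS3 (AT5G07190), an embryo-specific protein gene, had 13583 balanced reads (1142 CPM) at 87.4% paternal, but 0.351, 1.59 and 2.69 CPM in viable and 1.75, 0.680 and 0 CPM in lethal endosperm, too few to test its share. The authors' deposited table gave ATS3 only 3.51 FPKM in balanced endosperm, against 0.421 FPKM in viable, so its balanced allele reads per kilobase were 261 times its FPKM, where the median over the 244 genes was 1.69. AT2G28490, another of the 244 genes but not of the 10 and named after its values were seen, stood at 23.3 times. Whether both kinds of balanced value rest on the same replicates was not stated by the labels or file headers. AT5G08460 had 4854 balanced reads at 70.8% paternal and was 62.5%, 67.7% and 43.9% in viable and 66.2%, 71.2% and 75% in lethal endosperm. It was called higher than 50% in lethal endosperm alone by edgeR (adjusted p = 0.0221), a call lost without any 1 of the 3 lethal libraries, and in viable endosperm its adjusted p was 0.236.

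Among the genes of lowest share, some stood below 50% in paternal excess. JAX1 (AT1G58160), a jacalin-type lectin gene known from virus resistance in Arabidopsis, was 40.5%, 38.0% and 22.4% paternal in viable, 30.9%, 23.0% and 35.8% in lethal and 70% in balanced endosperm. It was the 1 gene called lower than 50% in viable endosperm and was called in lethal endosperm too (log2 ratios -1.02 ± 0.29 and -1.20 ± 0.28, edgeR adjusted p = 0.0341 and 0.0121). The viable call was lost without viable replicate 2 or 3 or lethal replicate 1 or 3, and the lethal call without lethal replicate 1 or 2. AT5G45500 was 23.1%, 41% and 0% in viable, the last at 0.150 CPM, and 7.52%, 42.2% and 9.09% in lethal endosperm, against 72.7% of 77 balanced reads, and its lethal call (adjusted p = 0.0337) was lost without lethal replicate 1 or 3. AT1G65760 was 22.0%, 32.1% and 38.9% in viable, 19.9%, 14.1% and 57.8% in lethal and 74.0% in balanced endosperm, and was not called in either group (edgeR adjusted p = 0.147 and 0.0912). ST4B (AT1G13420), a sulfotransferase gene named for its low lethal share, was above 50% in every viable library at 60.9%, 65.7% and 100%, and was 42.3%, 61.0% and 15.8% in lethal and 80.2% in balanced endosperm. It was not called in either group (edgeR adjusted p = 0.274 in viable and 0.717 in lethal endosperm).

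Disease resistance genes of the RPP type, which vary strongly between Arabidopsis strains, were also looked at after their values were seen. RPP1 (AT3G44480) was 75.8%, 59.8% and 28% in viable, 73.6%, 76.9% and 80.6% in lethal and 79.2% in balanced endosperm. It was called higher than 50% in lethal endosperm (edgeR adjusted p = 0.0422) and not in viable endosperm (0.634). RPP8 (AT5G43470) was 85.7% of 7 viable reads, 56.8% of 44 lethal reads and 77.6% of 76 balanced reads, under the minimum for the test. RPP13 (AT3G46530) was 93.5% paternal over 168 balanced reads, but gave 3 Col and 11 Ler reads over the 3 viable libraries and 2 Col and 27 Ler reads over the 3 lethal libraries, under the minimum for the test. These 3 genes, the members that carry an RPP symbol, all overlap another locus. Members given by locus number alone were not sorted by this type.

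At the other end, 21 of the 186 members with 100 or more lethal reads gave paternal reads alone over the lethal libraries. The share of all genes that did so was not counted, so this number is a description of the members. Of the 21 genes 4 lay on chromosome 1, 2 on chromosome 2, 3 on chromosome 3, 6 on chromosome 4 and 6 on chromosome 5. Over the viable libraries the same 21 were 98.8% to 100% paternal. The rule for named genes took 5 of these equal values by locus order, namely AT5G55896, AT5G50345, AT5G49440, AT5G28622 and AT5G28350. They were 100% paternal in every lethal library, 97.6% to 100% in every viable library and 96.7% to 100% in the balanced pool. The authors' deposited table called 1 of the 5, AT5G49440, higher in lethal than in balanced endosperm (4.56 against 1.73 FPKM, q = 0.0176).

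Viable and lethal endosperm, which differ in the father's nrpd1 allele, were then set against each other for the same genes. By edgeR 0 of 213 members differed in paternal share at adjusted p under 0.05, 31 did at an unadjusted p under 0.05, and over all genes 8 of 12734 (0.0628%) were called. Over all genes 535 had an unadjusted p under 0.05. Among 162 members with 20 or more reads in all 6 libraries, all viable shares lay above all lethal shares for 20 genes and below them for 4, against 6.55% and 5.19% of all genes so covered. The smallest adjusted p belonged to AT5G50070 (chromosome 5, 20364516 to 20365481, named after its values were seen), at 55.8%, 65.2% and 70.6% in viable, 43.7%, 38.4% and 38.3% in lethal and 86.1% in balanced endosperm. The viable and lethal libraries of AT5G50070 did not overlap, and the difference in log2 ratio was 1.43 ± 0.23 (edgeR adjusted p = 0.0900). AT5G50070 was called higher than 50% in viable (log2 ratio 0.85 ± 0.17) and lower than 50% in lethal endosperm (-0.58 ± 0.16), by edgeR. Without viable replicate 3 the difference was 1.20 and was called (edgeR adjusted p = 0.0450), and over all alternatives its adjusted p ran from 0.00144 to 0.876. AT1G63190, also named after its values were seen, was 70.8%, 71.7% and 70% in viable and 59.2%, 58.0% and 61.0% in lethal endosperm, a difference of 0.73 ± 0.14 in log2 ratio (adjusted p = 0.177).

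Expression of the 244 genes was likewise not called different between viable and lethal endosperm by edgeR, at 0 of 213 members and 0 of 12674 genes (0%), while 18 members and 865 genes had an unadjusted p under 0.05. With the replicate number as a block edgeR called 3 members (117 genes), namely PME3, AT3G28155 and EBP, and DESeq2 called PME3 and AT3G28155 (199 genes). PME3 (AT3G14310), a pectin methylesterase gene that modifies cell walls, had 29.3, 23.8 and 23.6 CPM in viable, 7.14, 4.89 and 4.59 CPM in lethal and 84.9 CPM in balanced endosperm, a viable minus lethal log2 difference of 2.19 ± 0.38 (edgeR adjusted p = 0.142). Its paternal share was 63.5%, 56.7% and 72.8% in viable, 24.6%, 27.8% and 52.9% in lethal and 70.1% in balanced endosperm, with no overlap between viable and lethal libraries, and that difference was not called (adjusted p = 0.947). AT3G28155 had 12.3, 12.1 and 16.5 CPM in viable and 1.13, 1.90 and 1.48 CPM in lethal endosperm, a log2 difference of 3.18 ± 0.52 (adjusted p = 0.142), and 7.65 CPM in balanced endosperm, and was named after its values were seen.

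The authors' deposited table of viable against lethal endosperm called 4 of 239 members higher and 1 lower, against 1.74% and 0.769% of all genes tested. PME3 was 5.27-fold, AT2G06950 3.34-fold, EBP 2.61-fold and EMS1, a receptor kinase gene known from anther development, 2.29-fold higher in viable than in lethal endosperm in the authors' deposited table. AT2G06950 and EMS1 were named after their values were seen. AT5G50070 was 2.78-fold lower in the authors' deposited table, at 39.3 FPKM in viable and 109 FPKM in lethal endosperm.

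Against balanced endosperm, the genes moved in both directions. By the q-values of the authors' deposited table, 56 of 242 members were higher and 42 lower in viable endosperm (23.1% and 17.4%), against 14.2% and 12.9% of all genes tested. Lethal endosperm in the authors' deposited table had 60 of 243 higher and 57 lower (24.7% and 23.5%), against 17.5% and 16.6% of all genes. Among genes with 50 or more balanced reads the background was 13.9% and 18.5% in viable and 16% and 23.4% in lethal endosperm, so the members' share of higher calls lay above both backgrounds and their share of lower calls lay near the second. Of the 98 members with 200 or more balanced reads, 17 were higher and 29 lower in viable endosperm (17.3% and 29.6%), against a background of 11.8% and 22.5% of all genes at that depth. In lethal endosperm 16 were higher and 38 lower (16.3% and 38.8%), against 13% and 27.3%. At that depth the members' share of lower calls thus lay above the background in both groups, as did their share of higher calls. Both comparisons share the balanced pool. The median change in log2(FPKM + 1) of the members was 0.07 in viable and 0.08 in lethal endosperm, against 0.03 and 0.06 over all genes and -0.09 and -0.11 over genes with 50 or more balanced reads. The direction in allele CPM was the same for all 98 members called in viable endosperm and for 116 of the 117 called in lethal endosperm.

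**Figure D4:**
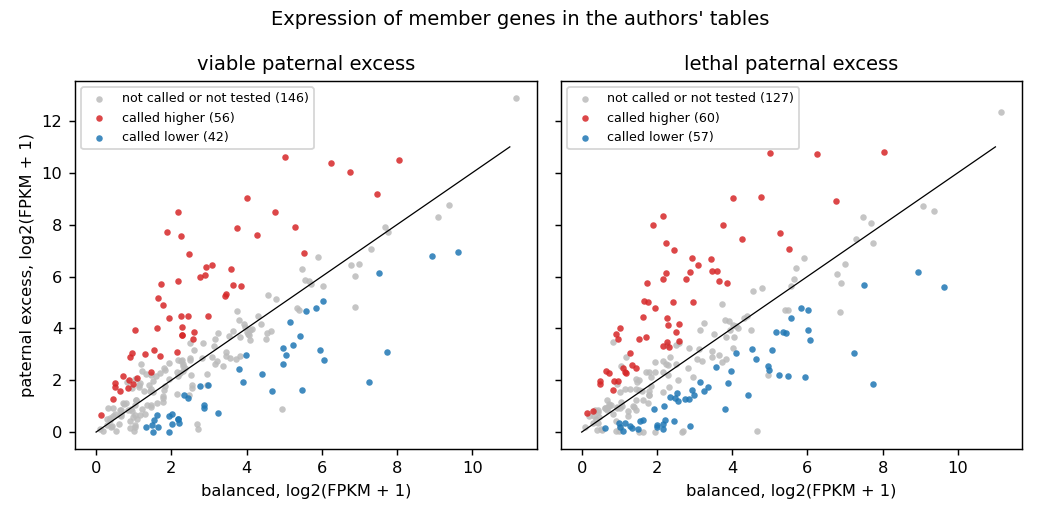
Level of each of the 244 genes in the authors' tables, as log2(FPKM + 1) in viable (left) or lethal (right) paternal excess on the vertical axis against balanced endosperm on the horizontal axis; colours show the authors' calls at q under 0.05 and the line marks equal levels. Red points above the line (56 in viable, 60 in lethal) and blue points below it (42 and 57) are of like number.

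The genes of largest rise were the same 5 in both groups, and 4 of them had 57 to 69 balanced reads, near the minimum of 50. AT2G20170 (chromosome 2, 8701013 to 8707009) had 787, 767 and 1360 CPM in viable, 732, 804 and 1157 CPM in lethal and 5.63 CPM in balanced endosperm, at 98.9% to 99.6%, 99.1% to 99.8% and 98.5% paternal. AT2G20170, which overlaps another locus, was 102-fold higher in viable and 91.9-fold higher in lethal than in balanced endosperm, in the authors' deposited table. AT5G25410 (chromosome 5, 8831670 to 8833509) had 620, 459 and 1041 CPM in viable, 694, 871 and 1146 CPM in lethal and 5.80 CPM in balanced endosperm, at 98.7% to 99.1%, 97.8% to 98.8% and 100% paternal. AT5G25410 was 76.9-fold and 93.5-fold higher in viable and lethal than in balanced endosperm, in the authors' deposited table.

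AT1G30920 was 86.7% to 91.5% paternal in viable and 85% to 88.2% in lethal endosperm, and in the authors' deposited table it was 49.5-fold and 41.7-fold higher than in balanced endosperm. ANNAT7 (AT5G10230), an annexin gene for a membrane-binding protein, had 1332, 1086 and 2922 CPM in viable, 1088, 1313 and 2895 CPM in lethal and 32.7 CPM in balanced endosperm. For ANNAT7 the libraries numbered 3 of both groups stood above the other 4. Its paternal share was 71.9% to 82.1% in viable, 75.3% to 80.5% in lethal and 79.7% in balanced endosperm. AT5G46877 rose 49.3-fold in viable and 55-fold in lethal endosperm by the authors' deposited table, at 57.5% to 63.2% paternal in viable, 64.3% to 66.1% in lethal and 70.2% in balanced endosperm.

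Other members that rose were noted after their values were seen. NF-YC5 (AT5G50490), a histone-fold subunit of a trimeric transcription factor, was 97.0% to 99.2% paternal in viable, 95.7% to 98.8% in lethal and 72.9% in balanced endosperm, and in the authors' deposited table it was 11.4-fold higher in viable and 11.4-fold higher in lethal than in balanced endosperm. ACR1 (AT5G65890), which encodes a protein with ACT domains, was 96.5% to 97.6%, 93.8% to 96.3% and 80.6% paternal in viable, lethal and balanced endosperm, and in the authors' deposited table it was 11.9-fold and 12.9-fold higher. Small cysteine-rich peptide genes were among the members too. SCRL4 (AT1G60986) was 98.5% to 99.8% paternal in viable, 98.7% to 99.4% in lethal and 98.1% in balanced endosperm, and in the authors' deposited table it was 17.7-fold and 22.5-fold higher in viable and lethal than in balanced endosperm. LCR50 (AT2G12465) was 91.7% to 91.9%, 83.6% to 89.4% and 81.1% paternal in viable, lethal and balanced endosperm, and 9.79-fold and 4.53-fold higher in the authors' deposited table. LCR29 (AT2G10535) was 99.8% to 100% paternal in all 6 libraries and was not called (the authors' deposited table gave it 1.79-fold for both groups).

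The genes of largest fall, ranked among those with a value above 0 in both groups, had few reads left in paternal excess. AT2G23120 had 2.28, 0.476 and 11.8 CPM in viable, 0.376, 1.77 and 1.08 CPM in lethal and 27.9 CPM in balanced endosperm, and in the authors' deposited table it was 28.3-fold and 82.0-fold lower. OLEO4 (AT3G27660), an oil-body protein gene of seeds, had 0.703, 1.27 and 0 CPM in viable, 3.88, 9.52 and 0 CPM in lethal and 27.0 CPM in balanced endosperm, and in the authors' deposited table it was 53.5-fold and 20.5-fold lower. SUC2 (AT1G22710), the sucrose transporter of phloem companion cells, had 1.58, 0.952 and 0 CPM in viable, 0.125, 0.816 and 0.135 CPM in lethal and 28.8 CPM in balanced endosperm, and in the authors' deposited table it was 20.9-fold and 12.5-fold lower. A library without a read lay under 0.376 to 0.527 CPM, the level that 3 reads would give. FLC (AT5G10140), the floral repressor, named after its values were seen and overlapping another locus, had 8.96, 7.14 and 9.13 CPM in viable, 5.01, 1.77 and 2.29 CPM in lethal and 55.8 CPM in balanced endosperm, and in the authors' deposited table it was 7.71-fold and 18-fold lower.

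The 5 largest falls in lethal endosperm also held AT5G38010, MSRB4 (a methionine sulfoxide reductase gene), AT2G25020 and TGA10 (a bZIP transcription factor gene), and those in viable endosperm AT3G26250 and AT3G25600. The balanced FPKM of these 6 genes was 1.12 to 6.33 in the authors' deposited table. A pair of called falls was listed at 0 in viable endosperm and so has no fold. In the authors' deposited table AT5G05790 had 0 FPKM in viable against 1.86 FPKM in balanced endosperm (q = 0.00048), and AT5G10120 had 0 against 2.86 FPKM (q = 0.00048). Of the 31 members with too few reads to test their share, none had more than 59 reads over the 6 libraries. For these genes the paternal-excess libraries say little about the share.

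The 244 genes were also split by position, by a rule made after the data were seen that used the balanced pool. The genome was cut into windows of 1 Mb, and windows with 20 or more other genes were called shifted where the median balanced share of those other genes was 40% or more. There were 10 shifted windows, on chromosome 1 from 28 to 31 Mb, chromosome 2 from 15 to 17 Mb, and chromosome 5 from 0 to 4 Mb and 26 to 27 Mb. Other genes in the 10 windows had balanced medians of 42.4% to 55.8%, and window medians of 48% to 50.5% in viable and 48.2% to 50.4% in lethal endosperm. Over all shifted windows together the medians of other genes were 49.4% in viable, 49.4% in lethal and 46.3% in balanced endosperm, and elsewhere 50.1%, 50% and 32.8%. The shift was thus a feature of the balanced pool and was not seen in the paternal-excess libraries.

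**Figure D5:**
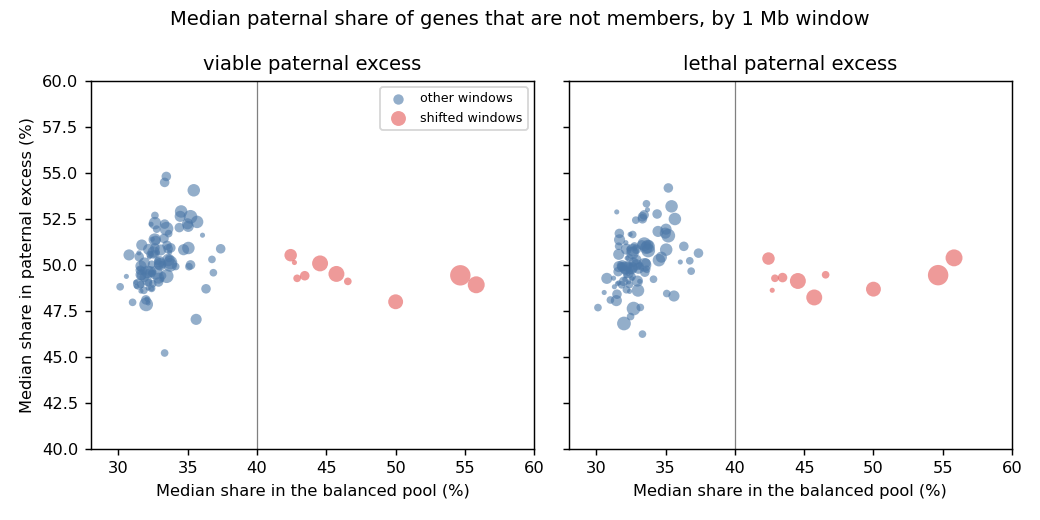
Median paternal share (percent) of genes other than the 244 in each 1 Mb window, in viable (left) and lethal (right) paternal excess on the vertical axis against the balanced pool on the horizontal axis, with point size growing with the number of the 244 genes in the window. The 10 red windows right of the 40% line reach 55.8% in the balanced pool and stay between 48% and 50.5% in paternal excess.

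The shifted windows held 48 of the 244 genes, 4.40% of their 1092 genes with enough balanced reads, against 196 of 9293 (2.11%) elsewhere. On chromosome 5, the 4 windows from 0 to 4 Mb held 6, 8, 12 and 7 of them, ATS3, AT5G08460, FLC and ANNAT7 included. In the shifted windows the median share of members with 50 or more reads was 71.2% in viable (38 genes), 67.7% in lethal (38 genes) and 75.4% in balanced endosperm. Elsewhere it was 91.9% in viable (168 genes), 90.2% in lethal (166 genes) and 85.6% in balanced endosperm. Called higher than 50% by edgeR were 20 of 40 tested members of the shifted windows in viable and 19 of 40 in lethal endosperm, against 133 and 136 of 173 elsewhere. Windows and members were both chosen by balanced shares. The rule therefore favoured a higher density of members in the shifted windows, and that density is a description. Members there also had a lower balanced share, and the part of this in their lower paternal-excess share was not tested. These 48 genes thus lay in windows whose other genes were shifted in the balanced pool as well, and the cause of that shift was not tested.

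Members of the shifted windows were not alike. The imprinted-list genes AT5G10950 and AT2G36560 lie there at 94.1% to 99.6% paternal in paternal excess. RR21 (AT5G07210), a cytokinin response regulator gene, was 72.3%, 69.8% and 70.3% in viable, 69.9%, 70.8% and 74.2% in lethal and 90.5% in balanced endosperm, and in the authors' deposited table it was 7.00-fold and 6.62-fold higher than in balanced endosperm. LEA4-5 (AT5G06760), a gene of the late embryogenesis abundant family that protects drying cells, was 44.6%, 58.9% and 56.2% in viable, 34%, 38.7% and 41% in lethal and 75.2% in balanced endosperm. Neither group of LEA4-5 was called different from 50% by edgeR (adjusted p = 0.779 and 0.167). EMS1 (AT5G07280) was 59.6%, 61.0% and 48% in viable, 61.0%, 46.4% and 49.1% in lethal and 70.9% in balanced endosperm, and was not called in either group (adjusted p = 0.516 and 0.918). RR21 and LEA4-5 were named after their values were seen.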

How the data were processed

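RNA-seq of endosperm was analysed from 10 samples forming 3 viable and 3 lethal replicates, since the authors merged the 2 sequencing parts of replicates 1 and 2 into 1 column per replicate. Per the submitters' processing notes the tools included Trim Galore, FastQC, TopHat, Bowtie and Cuffdiff, with the TAIR10 genome, while versions, settings and the rule of allele assignment were not stated in the labels (not given in the sources used here). Deposited by the authors were allele counts (Ler and Col reads per gene) and, for the balanced pool, the total of these reads and the percent paternal. The deposited expression tables hold the authors' FPKM and q-value per group and comparison. The 10 columns of single balanced replicates were not used. Reads outside genes (0.613% to 4.09% of assigned reads) were left out.

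The members and gene lists were chosen with earlier results of these data known. Named were the 10 members with most balanced reads, those on the imprinted list, those called between viable and lethal endosperm, the 5 largest rises and falls with q under 0.05 and values above 0 in both groups in each comparison with balanced endosperm, the 5 lowest and highest lethal shares with 100 or more reads (equal values taken by locus order), and the 3 nearest each side of 70%; others are marked in the text. All 244 members matched the reference table, which gave 70 a symbol.

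Shares were tested by edgeR 4.0.16 (R 4.3.3) on Ler and Col counts with a term per library and an allele term per group, and expression on their sum with TMM and filterByExpr; SE is the log2 value over the root of F. Both fits were tested on simulated data, with changes placed only in well-covered genes of intermediate paternal share. That simulation does not cover members with few reads or with nearly all reads paternal. CPM are counts scaled to the library's total of gene allele reads. Limma 3.58.1 and DESeq2 1.42.0 served as alternatives. Comparisons with balanced endosperm rest on the authors' q, since the single balanced replicates were left out and the pool was used alone. The expression test has no replicate block. In expression, deviations from the group means correlated at 0.115, 0.477 and 0.437 between equal replicate numbers over 12674 genes. Viable replicate 1 correlated more with lethal replicate 2, at 0.151. No label states that equal numbers are pairs, so the calls with the block stand beside those without. Nothing says that replicates came from separate plants, so the p-values reflect only the spread among these libraries, which may be technical.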

Additional observations from a re-analysis of the deposited data

How the results depend on the processing

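Over the alternatives tried, 66 counts stayed within 1.5 times and 13 moved. Of the values of named genes 1451 kept their side of the threshold, 24 lost a call and 24 gained one. Among values called in either fit 0 changed sign, and changes of sign between uncalled values were not counted. Leaving out each library in turn gave 132 to 157 members called for share in viable and 125 to 171 in lethal endosperm, 0 to 1 for the viable minus lethal share and 0 to 0 for viable against lethal expression. Members at 70% or more in every remaining library then numbered 125 to 148 in viable and 127 to 138 in lethal endosperm. Leaving out a library can only keep or raise these counts (120 and 122 with all 3), so they cannot show dependence on 1 library. AT5G50070 was the 1 member called for the viable minus lethal share, with no minimum of reads (1 member, adjusted p = 0.00144) and without viable replicate 3 (1 member). Expression called 2 members with DESeq2, 2 with no filter on low counts and 3 with the replicate block. For share, deviations between equal replicate numbers correlated only weakly, at 0.00437, 0.0502 and 0.0399. Viable replicate 2 with lethal replicate 3 stood at -0.0495, and viable replicate 3 with lethal replicate 2 at -0.04. The main share test used no pairs, and the replicate block called 150 in viable, 151 in lethal and 0 for their difference. Restricting the members to 80% or more in the balanced pool left 99 and 100 called for share in viable and lethal endosperm, and 55 and 65 by the authors' q against balanced endosperm. Restricting them to 200 or more balanced reads left 73 and 73 called for share, and 46 and 54 by the authors' q. These falls follow from the smaller sets. Limma on log ratios called 139 and 131 for share in viable and lethal endosperm, and leaving out viable and lethal replicate 3 together 169 and 172. Members with few reads, 146 under 200 in the balanced pool, limit what their shares can show.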
